A study of Mus musculus with 17 samples.

Results

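The 37 genes described here encode the enzymes that take glucose to pyruvate and lactate, the kinases and phosphatases that set the flow through them, and the pyruvate dehydrogenase complex with its regulators. They were chosen by name from the table of read counts, in which they are 37 of 48795 genes, and all 37 were found. RNA of mouse kidney cortex was sequenced in 17 libraries of 4 groups. WT (5 libraries) were wild type mice. GCERAd (5 libraries) were Ggt/CreER TG/TG; ATF4 fl/fl mice in which tamoxifen, given on 2 days at 6 weeks of age, induced deletion of the transcription factor gene Atf4. CreER is driven there by a part of the promoter of Ggt1, which is active in the proximal tubule. TRACK (3 libraries) is a transgenic mouse model of kidney cancer, and GCERAdT (4 libraries) is labelled as TRACK with ATF4 KO. In the TRACK model a constitutively active mutant of HIF-1α is made in proximal tubules. The methods at hand do not describe the TRACK and GCERAdT animals, their age or their treatment, and the WT mice are not said to carry CreER or to have had tamoxifen. The study's methods have the kidneys taken about 1 month after the first injection, after a fast of 16 hours.

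Some properties of the libraries touch these genes. Totals were between 53688512 and 71364561 counts on genes. By the percentage of counts that processed pseudogenes took, the libraries were of 2 kinds: 0.032% to 0.038% in 8 libraries (kind A: WT 1, 3, 4 and 5, GCERAd 1 and 2, GCERAdT 1 and 2) and 0.0574% to 0.0784% in 9 (kind B: WT 2, GCERAd 3, 4 and 5, all of TRACK, GCERAdT 3 and 4). Xist was between 147 and 422 CPM (counts scaled to library size) in WT, and at most 6.06 CPM in the other groups. The summed counts of 4 Y-linked genes were at most 0.308 CPM in WT and between 129 and 170 CPM in the other 12 libraries. Xist is made in females and Y-linked genes in males, so the WT libraries read as female and the other 12 as male. A difference between WT and another group therefore cannot be told apart from a difference of sex. GCERAdT, GCERAd and TRACK do not differ in sex by these genes. GCERAd 4 and 5 stood apart from GCERAd 1, 2 and 3 in several genes below. Atf4, the deleted gene, was between 74.8 and 101 CPM in WT and between 55.8 and 75.2 CPM in GCERAd, with a log2 difference of -0.38 between groups that overlapped narrowly (adjusted p = 0.0218, edgeR). It was between 77.6 and 93.4 CPM in TRACK and between 80.4 and 104 CPM in the libraries labelled GCERAdT, with a log2 difference of 0.17 (adjusted p = 0.367, edgeR). These counts cover the whole gene and all cells of the cortex, so they do not measure the deleted exons alone. A lower Atf4 was thus not seen in the libraries labelled GCERAdT, and directions drawn from that label below rest on the label alone.

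Glycolysis splits glucose into pyruvate, and most of its steps can be run by several isozymes encoded by different genes. Pyruvate then goes to lactate through lactate dehydrogenase or to acetyl-CoA through the pyruvate dehydrogenase complex, which the PDH kinases switch off and the PDH phosphatases switch on. The proximal tubule is known for making glucose and burning fatty acids and lactate, with little glycolysis of its own. HIF-1α, the hypoxia-inducible factor, is a known activator of most glycolysis genes through sites with the core ACGTG.

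In both comparisons of a TRACK group with its counterpart without TRACK, more members were called higher than lower. All changes are given as log2 fold changes of the group named first, with their standard errors (SE), from the quasi-likelihood test of edgeR, with p adjusted by Benjamini-Hochberg over all genes tested. Genes were tested when their mean FPKM (fragments per kilobase of exon, scaled to library size, on which levels of different genes can be compared) was at least 1 in either group. TRACK over WT had 18 of 32 members tested higher and 4 lower, where 23% of all genes tested were called higher and 22.6% lower. The median member change was 0.32, against -0.01 over all genes tested. With library kind in a fit of all 17 libraries, 17 of 33 members were higher and 3 lower, with 16.8% and 15.1% of all genes. The median was then 0.59. GCERAdT over GCERAd, where all libraries carry Y-linked counts, had 15 of 33 members higher and 5 lower, with 9.39% and 9.79% of all genes tested. The median was 0.57, against 0 over all genes. With library kind, 18 were higher and 7 lower, with 16% and 15% of all genes.

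Both comparisons of an ATF4 KO label with its counterpart gave fewer calls. GCERAd over WT had 9 of 32 members higher and 6 lower, where 14.1% and 13.5% of all genes were called, with a median change of -0.03. GCERAdT over TRACK had no member higher and 1 lower of 32, where 2.81% and 4.28% of all genes were called. Members called higher there numbered 0 also with DESeq2, and at an unadjusted p under 0.05 edgeR had 2 higher and 6 lower. The share of all genes at that unadjusted p was not computed, so these counts cannot be set against it. Always under the expression minimum were Hk3, Hkdc1, Eno2 and Pfkfb1, whose values come from a fit made without that minimum. Hk2 was under it in GCERAd over WT and Pfkfb2 in both comparisons with TRACK itself.

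**Figure D1:**
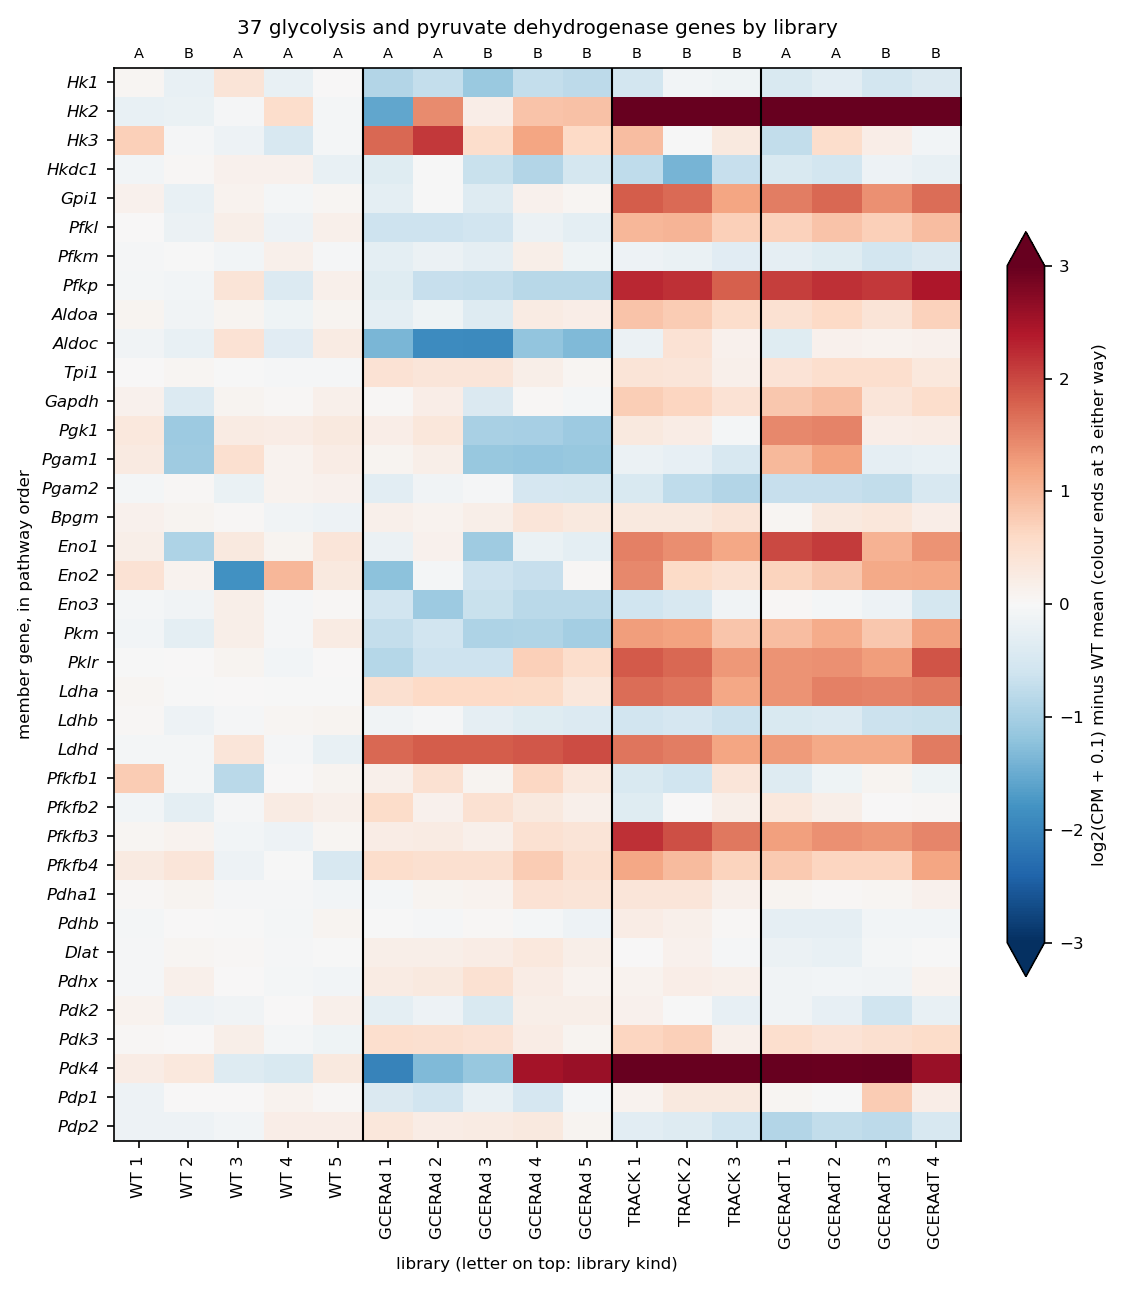
Level of each of the 37 members (rows, in pathway order) in each of the 17 libraries (columns, by group), as log2(CPM + 0.1) minus the WT mean on a colour scale that ends at 3 either way; the letter on top gives the library kind. Hk2, Pfkp, Gpi1 and Eno1 are red in all TRACK and GCERAdT libraries, and Pgk1 and Pgam1 follow the library kind in each group that holds both kinds.

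TRACK over WT and GCERAdT over GCERAd share no library, so their changes can be set side by side. Of 32 members tested in both, 11 were higher in both (34.4%), against 532 of 11575 genes tested in both (4.6%). They were Hk2, Gpi1, Pfkl, Pfkp, Aldoa, Gapdh, Eno1, Pkm, Pklr, Ldha and Pfkfb3. Lower in both were 2 members, Pgam2 and Pdp2 (6.25%, against 3.32% of all genes). Only Ldhd was called in opposite directions (3.12%, against 2.92% of all genes), a share near that of all genes. Across the 32 members the changes had a Pearson correlation of 0.79, against 0.59 across all genes. Genes are not independent replicates, and both measures also share the annotation and the protocol.

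**Figure D2:**
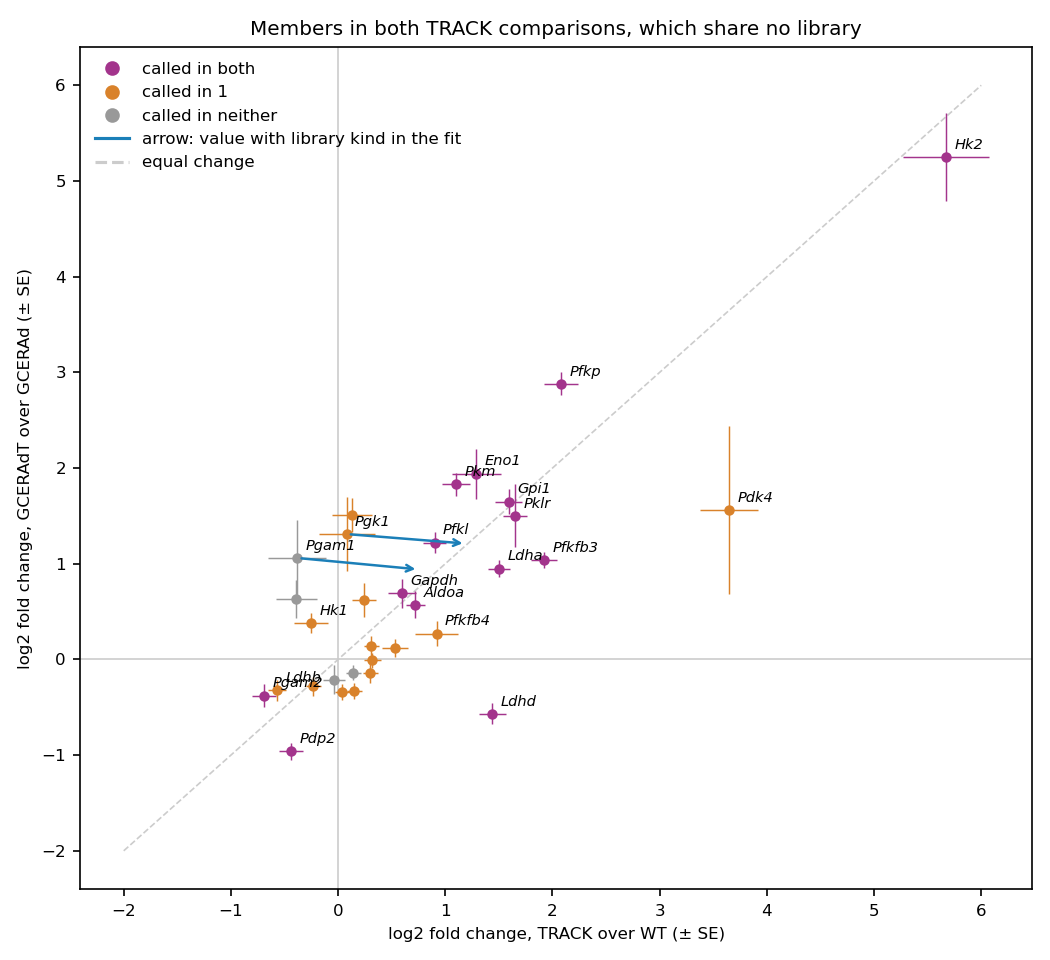
Log2 fold change of each member tested in both comparisons, TRACK over WT on the horizontal axis and GCERAdT over GCERAd on the vertical axis, each with its standard error; colours mark in how many of the comparisons a member was called. The 11 members higher in both lie in the upper right, Ldhd lies in the lower right, and arrows show where Pgk1 and Pgam1 move when library kind is in the fit.

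The promoters of these genes were read because the TRACK transgene is a form of HIF-1α. RefSeq promoter windows (GRCm38.p6, 250 bases before to 50 after the start, 1 or more windows a gene) were at hand for 36 of the 37 members. The 5 letters ACGTG, on either strand, were in a window of 18 of the 36 members (50%) and of 5886 of 27025 genes (21.8%). The members have more windows each than other genes, and counted by window the letters were in 22 of 55 windows of members and in 6447 of 32851 windows of all genes (19.6%). A match is a description of the letters and not a measured site. The 8-letter form TGATGNAA of the ATF4 type, with N for any base, was in no member window and in 4.51% of all genes. The pieces below, each 41 bases long and upstream of the start, belong to 7 members that rose in TRACK over WT, Pgk1 and Pgam1 with library kind in the fit, and the capitals mark 1 match of ACGTG or its reverse complement in each. The piece of Ldha holds further matches that are not marked, on the other strand at -48, which overlaps the capitals, and at -34.
Hk2, chr6:82774484-82774524, minus strand: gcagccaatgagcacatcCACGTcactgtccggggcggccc
Pfkfb3, chr2:11553967-11554007, minus strand: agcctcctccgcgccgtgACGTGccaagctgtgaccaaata
Aldoa, chr7:126799358-126799398, minus strand: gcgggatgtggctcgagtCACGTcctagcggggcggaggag
Pgk1, chrX:106186932-106186972, plus strand: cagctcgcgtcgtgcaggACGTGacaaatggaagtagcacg
Pgam1, chr19:41911739-41911779, plus strand: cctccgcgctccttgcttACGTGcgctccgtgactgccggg
Pkm, chr9:59657134-59657174, plus strand: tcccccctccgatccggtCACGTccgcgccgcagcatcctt
Ldha, chr7:46845739-46845779, plus strand: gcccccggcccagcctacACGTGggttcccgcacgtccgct
Gpi1, Pfkl, Pfkp, Eno1 and Pklr, which also rose in both TRACK comparisons, did not have these letters in their windows. Neither did Tpi1, Bpgm, Pfkfb4, Pdha1 and Pdk4, which rose in TRACK over WT. Gapdh, Ldhd and Pdk3 rose there too and had the letters, but their pieces are not shown. Pfkm and Pdp2, which fell in TRACK over WT, had them, as did Hk1, Hk3, Aldoc, Pfkfb2, Pdhb and Pdk2, which were not called there.

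Hexokinase traps glucose in the cell by phosphorylating it. Hk1, the form of most tissues, gave nearly all of the hexokinase FPKM in WT (97.4% ± 0.539, SD, n = 5), and Hk2, the inducible form of muscle and tumours, gave 0.309% ± 0.13. Hk2 (chromosome 6, 82725025 to 82774454 on GRCm38) had 0.27, 0.274, 0.319, 0.52 and 0.316 CPM in the 5 WT libraries and 0.0465, 1.06, 0.397, 0.679 and 0.688 CPM in GCERAd. It had 24.8, 20, and 6.82 CPM in TRACK and 20.8, 20.2, 22.5 and 24.6 CPM in GCERAdT. Every TRACK and GCERAdT library was above every other library, and TRACK 3 was the lowest of them. Hk2 rose by 5.67 (SE 0.4, edgeR adjusted p = 5.59e-06) in TRACK over WT and by 5.25 (SE 0.46, adjusted p = 3.64e-05) in GCERAdT over GCERAd, the largest change of a member in each. Its share of hexokinase FPKM was 15.5% ± 9.16 (n = 3) in TRACK and 20.9% ± 2.09 (n = 4) in GCERAdT, so Hk1 had the largest mean share in all groups.

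Hk1 itself went lower in GCERAd. It had 134 to 207 CPM (median 158) in WT and 72.4 to 96.5 CPM (median 90.8) in GCERAd, without overlap, and fell by 0.84 (SE 0.12, adjusted p = 0.000519, edgeR). TRACK over WT was -0.25 (SE 0.16, adjusted p = 0.216). GCERAdT over GCERAd was 0.38 (SE 0.1, adjusted p = 0.0208), which did not pass without GCERAdT 2 (adjusted p = 0.074). The difference between the ATF4 KO contrasts, GCERAdT over TRACK minus GCERAd over WT, was 0.65 (SE 0.19, adjusted p = 0.0209, edgeR on all 17 libraries), and with library kind in that fit 0.52 (adjusted p = 0.0854). It did not pass without TRACK 1 (adjusted p = 0.0745). Hk3 and Hkdc1, low in kidney, stayed at or under 0.725 and 2.32 CPM in all libraries. Hkdc1 was the one member under the minimum with an adjusted p under 0.05 in TRACK over WT, at -0.99 (SE 0.31, adjusted p = 0.0278).

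Gpi1 turns glucose-6-phosphate into fructose-6-phosphate and has no isozyme. It had 303 to 384 CPM in WT, 271 to 389 CPM in GCERAd, 1240, 1150 and 810 CPM in TRACK, and 910 to 1170 CPM in GCERAdT. All 7 libraries with the TRACK label were thus above the other 10. Gpi1 rose by 1.59 (SE 0.13, adjusted p = 1.42e-05, edgeR) in TRACK over WT and by 1.65 (SE 0.13, adjusted p = 1.7e-05) in GCERAdT over GCERAd. In GCERAd over WT it was -0.08 (SE 0.11) and in GCERAdT over TRACK 0 (SE 0.15).

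Phosphofructokinase commits fructose-6-phosphate to glycolysis, and its subunits are named for liver (Pfkl), muscle (Pfkm) and platelet (Pfkp). In WT, Pfkm gave 54% ± 4.53 of the FPKM, Pfkl 34% ± 2.67 and Pfkp 12% ± 2.07. GCERAd had a like order with 60.2% ± 1.69, 30.5% ± 1.71 and 9.21% ± 2.04. In TRACK the shares were 28.7% ± 1.53 for Pfkm, 39.7% ± 0.691 for Pfkl and 31.6% ± 1.72 for Pfkp, and in GCERAdT 26.5% ± 2.56, 38.1% ± 1.04 and 35.5% ± 1.92. Pfkm thus had the highest mean share without TRACK and the lowest with it, and its shares did not overlap between the TRACK groups and their counterparts.

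Pfkp changed most of the 3. It had 47.5, 47.1, 64.8, 37.2 and 54.9 CPM in WT, 38.3, 30.4, 29.9, 27.6 and 27.6 CPM in GCERAd, 239, 226 and 172 CPM in TRACK, and 210, 226, 214 and 265 CPM in GCERAdT. The groups with TRACK lay above both others without overlap. Pfkp rose by 2.08 (SE 0.16, adjusted p = 1.04e-05, edgeR) in TRACK over WT and by 2.88 (SE 0.12, adjusted p = 1.39e-07) in GCERAdT over GCERAd. It fell by 0.70 (SE 0.14, adjusted p = 0.00346) in GCERAd over WT, and the difference between the ATF4 KO contrasts was 0.82 (SE 0.21, adjusted p = 0.0107). Pfkl followed at smaller size, with 0.90 (SE 0.11) and 1.22 (SE 0.11) in the TRACK comparisons and -0.44 (SE 0.11, adjusted p = 0.0122) in GCERAd over WT. Pfkm was -0.23 (SE 0.07, adjusted p = 0.0286, edgeR) in TRACK over WT, a call that was lost with library kind in the fit (-0.24, adjusted p = 0.129) and without WT 4, TRACK 2 or TRACK 3.

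The PFKFB enzymes make and break fructose-2,6-bisphosphate, the strongest activator of phosphofructokinase. Pfkfb3, the form with the highest kinase activity, had 14.8 to 17.7 CPM in WT, 18.2 to 22.5 CPM in GCERAd, 74.8, 62.4 and 49.3 CPM in TRACK and 38.5, 42.2, 41.4 and 45.2 CPM in GCERAdT. The 4 ranges did not overlap. Pfkfb3 rose by 1.92 (SE 0.12, adjusted p = 2.69e-06, edgeR) in TRACK over WT and by 1.04 (SE 0.08, adjusted p = 2.1e-05) in GCERAdT over GCERAd. It was the 1 member called in GCERAdT over TRACK, where it fell by 0.56 (SE 0.13, adjusted p = 0.0313). That call was lost without TRACK 1, without TRACK 2 and without GCERAdT 1, 2 or 3, with adjusted p up to 0.0974. In GCERAd over WT it rose by 0.30 (SE 0.08, adjusted p = 0.0157; 0.0667 with library kind), and the difference between the ATF4 KO contrasts was -0.86 (SE 0.15, adjusted p = 0.00067). Its share of PFKFB FPKM was 47.9% ± 3.3 in WT, 45.3% ± 2.2 in GCERAd, 70.2% ± 3.35 in TRACK and 62.2% ± 2.25 in GCERAdT.

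Pfkfb4, a form of testis and tumours, rose by 0.92 (SE 0.2, adjusted p = 0.00385, edgeR) in TRACK over WT and by 0.54 (SE 0.16, adjusted p = 0.024) in GCERAd over WT, and was 0.27 (SE 0.13, adjusted p = 0.19) in GCERAdT over GCERAd. Without WT 3, WT 4 or GCERAd 4 the call in GCERAd over WT was lost, with adjusted p up to 0.0572. Pfkfb2, the heart form, was between 4.69 and 8.96 CPM and Pfkfb1, the liver and muscle form, between 0.532 and 1.77 CPM over all libraries.

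Aldolase splits fructose-1,6-bisphosphate. Of the summed FPKM of Aldoa, the muscle form that most tissues make, and Aldoc, the brain form, Aldoa gave 97.3% ± 0.461 in WT and Aldoc 2.71% ± 0.461. Aldoa had 696 to 813 CPM in WT, 588 to 911 CPM in GCERAd, 1380, 1300 and 1110 CPM in TRACK and 996 to 1230 CPM in GCERAdT. It rose by 0.72 (SE 0.09, adjusted p = 0.000199, edgeR) in TRACK over WT and by 0.57 (SE 0.14, adjusted p = 0.0211) in GCERAdT over GCERAd. The latter call was lost without GCERAdT 2 or 4, with adjusted p up to 0.0606.

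Aldoc had the largest fall of a member in GCERAd over WT. It had 22.1, 20.1, 31.8, 18.6 and 28.2 CPM in WT and 9.12, 6.36, 6.18, 10.4 and 9.36 CPM in GCERAd, and the highest GCERAd library lay well under the lowest WT library. TRACK had 20.8, 32.2 and 26 CPM and GCERAdT 18.4, 25.7, 25.3 and 25.9 CPM, within or near the WT range. Aldoc fell by 1.53 (SE 0.19, adjusted p = 0.000142, edgeR) in GCERAd over WT and rose by 1.51 (SE 0.18, adjusted p = 0.00032) in GCERAdT over GCERAd. GCERAdT over TRACK was -0.14 (SE 0.16, adjusted p = 0.634), and the difference between the ATF4 KO contrasts was 1.40 (SE 0.28, adjusted p = 0.00199).

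Tpi1, which interconverts the triose phosphates, had 556 to 594 CPM in WT and 591 to 805 CPM in the other groups. It rose by 0.31 (SE 0.07, adjusted p = 0.00519, edgeR) in TRACK over WT and by 0.29 (SE 0.08, adjusted p = 0.0225) in GCERAd over WT, the latter lost without WT 4, WT 5 or GCERAd 3 (adjusted p up to 0.0548).

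The next genes, Gapdh, Pgk1, Pgam1 and Eno1, differed between the 2 kinds of library within groups. Gapdh oxidises glyceraldehyde-3-phosphate, Pgk1 makes the first ATP of the pathway, Pgam1 is the phosphoglycerate mutase of most tissues and Eno1 the common enolase. Kind B over kind A, with the groups held in the fit, was -1.29 (SE 0.06, adjusted p = 1.83e-10, edgeR) for Pgk1, -1.32 (SE 0.07, adjusted p = 6.88e-10) for Pgam1, -0.76 (SE 0.14) for Eno1, -0.38 (SE 0.09) for Gapdh and -0.24 (SE 0.05) for Ldhb. These 5 of 33 members tested were called, all of them lower in kind B, where 21.7% of all 12208 genes were called in either direction. They are also the 5 members with the highest share of sequence in common with processed pseudogenes. Of the distinct 51-base words in annotated transcripts of Pgk1, 53.8% occur in annotated processed pseudogenes, of Pgam1 36.1%, of Gapdh 24.5%, of Ldhb 20.4% and of Eno1 18.8%. Pkm follows with 13.8% and a kind effect of -0.21 (SE 0.1, adjusted p = 0.125). Across the 33 members the Pearson correlation of the share with the kind effect was -0.78 and Spearman's rho -0.49. With 100-base words they were -0.79 and -0.65. Whether reads went to pseudogenes or were dropped for matching several places was not tested. Nor was read length: base yields differ between libraries in the study's table of sequencing lanes, whose names are not matched to the libraries here.

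Within a kind, these genes were higher with TRACK. Pgk1 (chromosome X, 106187100 to 106203699) had 322, 309, 303 and 320 CPM in WT 1, 3, 4 and 5, and 123 CPM in WT 2. GCERAd 1 and 2 had 299 and 331 CPM, and GCERAd 3, 4 and 5 had 132, 131 and 122 CPM. TRACK, all kind B, had 321, 302 and 249 CPM. GCERAdT 1 and 2 had 702 and 730 CPM, and GCERAdT 3 and 4 had 298 and 304 CPM. The TRACK libraries thus lay near or under the kind A libraries of WT, and above all kind B libraries of WT and GCERAd. Pgk1 was 0.08 (SE 0.26, adjusted p = 0.827, edgeR) in TRACK over WT, and 1.2 (SE 0.09, adjusted p = 1.03e-07) with library kind in the fit. In GCERAdT over GCERAd it was 1.31 (SE 0.39, adjusted p = 0.0408) and 1.21 (SE 0.07, adjusted p = 2.32e-09) with kind. The former call was lost without GCERAd 3, 4 or 5 or GCERAdT 1 or 2, with adjusted p up to 0.125.

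Pgam1 changed its direction with the kind. It had 106, 124, 95.8 and 103 CPM in WT of kind A, 41.9 CPM in WT 2, 78.8, 75.2 and 63.4 CPM in TRACK, 93.5 and 100 CPM in GCERAd 1 and 2, and 40, 39.8 and 40.2 CPM in GCERAd 3, 4 and 5. GCERAdT 1 and 2 had 174 and 206 CPM, and GCERAdT 3 and 4 had 73.6 and 76 CPM. It was -0.38 (SE 0.27, adjusted p = 0.284, edgeR) in TRACK over WT and 0.76 (SE 0.1, adjusted p = 5.06e-05) with kind in the fit, and 1.06 (SE 0.4, adjusted p = 0.0916) and 0.94 (SE 0.08, adjusted p = 3.18e-07) in GCERAdT over GCERAd. Because TRACK holds kind B libraries alone, its kind-adjusted comparison with WT rests on WT 2 and on the kind difference in the other groups. Eno1 and Gapdh were called with and without the kind. Eno1 had 515, 567, 488 and 590 CPM in WT of kind A and 243 CPM in WT 2, 406, 501, 221, 401 and 374 CPM in GCERAd, 1300, 1210 and 1020 CPM in TRACK and 1820, 1960, 947 and 1170 CPM in GCERAdT. All libraries with the TRACK label were above all others. Gapdh had 1370 to 1500 CPM in WT of kind A and 1010 CPM in WT 2, 990 to 1540 CPM in GCERAd, 1800 to 2230 CPM in TRACK and 1720 to 2560 CPM in GCERAdT, again without overlap. Eno1 rose by 1.29 (SE 0.23) in TRACK over WT and 1.94 (SE 0.26) in GCERAdT over GCERAd, and by 1.96 (SE 0.21) and 1.83 (SE 0.16) with kind. Gapdh rose by 0.60 (SE 0.13) and 0.69 (SE 0.15), and by 0.92 (SE 0.13) and 0.66 (SE 0.1) with kind. In GCERAd over WT none of the 4 genes was called, and with kind their changes were between -0.11 and 0.11.

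**Figure D3:**
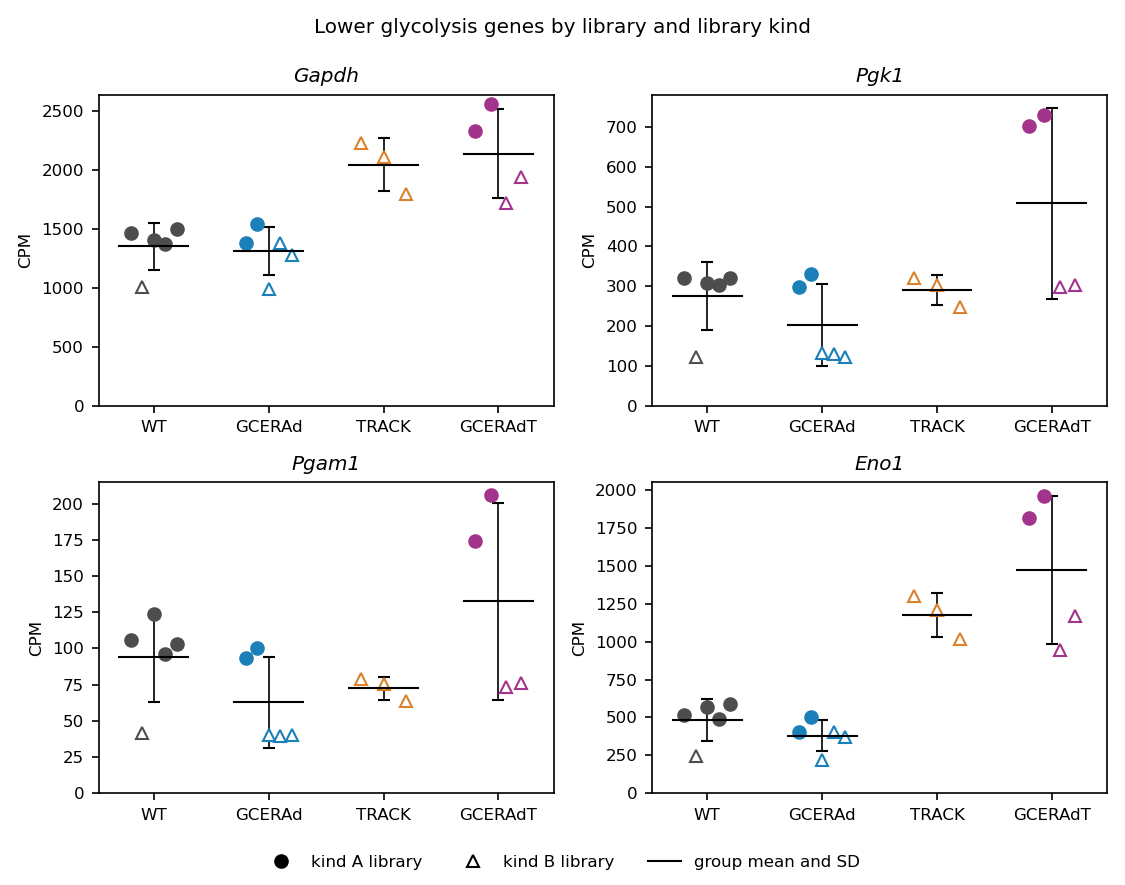
CPM of Gapdh, Pgk1, Pgam1 and Eno1 in each library by group, with filled circles for kind A and open triangles for kind B libraries; lines and bars give the group mean and SD. In WT, GCERAd and GCERAdT the kind B values of Pgk1 and Pgam1 lie under all kind A values of the same group, and TRACK holds kind B libraries only.

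Pgam2 is the phosphoglycerate mutase of muscle, and its level per length was near that of Pgam1 in WT (mean FPKM in WT 56.4 ± 5.47 for Pgam2 and 47.5 ± 15.6 for Pgam1). It had 40.8 to 52 CPM in WT, 32.6 to 46 CPM in GCERAd, 34.2, 27.8 and 25.8 CPM in TRACK and 28.4 to 33.9 CPM in GCERAdT. It fell by 0.69 (SE 0.11, adjusted p = 0.000803, edgeR) in TRACK over WT and by 0.38 (SE 0.12, adjusted p = 0.0452) in GCERAdT over GCERAd, the latter lost without any of 6 of the 9 libraries. Summed skeletal muscle markers (14 genes) were 4.4 to 12.4 CPM in WT and 1.19 to 2.2 CPM elsewhere, most of the sum from Myh1 (3.38 to 10.4 CPM), while Ckm and Myh4 were at 0 in all WT libraries. In GCERAdT and GCERAd the sums were 1.32 to 2.2 and 1.19 to 1.69 CPM. Bpgm, which makes 2,3-bisphosphoglycerate and is known from red cells, had 41.8 to 50.2 CPM in WT and 47.8 to 60.7 CPM in the other groups, and rose by 0.32 (SE 0.08, adjusted p = 0.00716) in TRACK over WT and by 0.23 (SE 0.08, adjusted p = 0.0434) in GCERAd over WT. Both calls were lost with kind in the fit (adjusted p = 0.0537 and 0.0726), and the latter without any of 6 libraries. Summed red cell markers (5 genes) were 71.8 to 131 CPM in WT and 148 to 461 CPM in the other groups, and their part in the Bpgm values was not tested.

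Eno3, the enolase of muscle, had 3.49 to 4.22 CPM in WT and 1.71 to 2.48 CPM in GCERAd without overlap, and fell by 0.79 (SE 0.15, adjusted p = 0.00286, edgeR). It was -0.39 (SE 0.19, adjusted p = 0.124) in TRACK over WT, and the difference between the ATF4 KO contrasts was 1.03 (SE 0.26, adjusted p = 0.00792). The part of the muscle marker difference given above in these values was not tested. Eno1 gave 97.3% ± 1 of enolase FPKM in WT and 99.1% ± 0.228 in TRACK, and Eno2, the form of neurons, stayed at or under 1.53 CPM. Eno2 was 1.60 (SE 0.44, adjusted p = 0.0349) in GCERAdT over GCERAd in the fit without a minimum.

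Pyruvate kinase makes pyruvate and ATP. Pkm, which encodes the M1 and M2 forms, gave 74.9% ± 2.64 of the FPKM in WT and Pklr, the liver and red cell form that is also made in proximal tubules, 25.1% ± 2.64. Pkm had 260, 224, 307, 265 and 324 CPM in WT, 166, 183, 144, 146 and 136 CPM in GCERAd, 658, 627 and 485 CPM in TRACK and 523, 590, 478 and 638 CPM in GCERAdT. The order was GCERAd below WT below both TRACK groups, without overlap, and TRACK and GCERAdT overlapped. Pkm rose by 1.10 (SE 0.13, adjusted p = 0.000135, edgeR) in TRACK over WT and by 1.83 (SE 0.12, adjusted p = 3.56e-06) in GCERAdT over GCERAd. It fell by 0.82 (SE 0.11, adjusted p = 0.000325) in GCERAd over WT, with -0.07 (SE 0.13) in GCERAdT over TRACK and a difference between these contrasts of 0.75 (SE 0.19, adjusted p = 0.00784). The counts do not separate its M1 and M2 transcripts.

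Pklr rose in both TRACK comparisons, and in GCERAd its libraries fell into 2 sets. It had 55.8 to 62.3 CPM in WT, 213, 195 and 146 CPM in TRACK and 150, 153, 141 and 219 CPM in GCERAdT. GCERAd 1, 2 and 3 had 32.7, 38.1 and 38.5 CPM, all below WT, while GCERAd 4 and 5 had 96.3 and 84.8 CPM, both above WT. Its change was 1.65 (SE 0.11, adjusted p = 3.44e-06, edgeR) in TRACK over WT, 1.5 (SE 0.33, adjusted p = 0.0105) in GCERAdT over GCERAd, and -0.01 (SE 0.28, adjusted p = 0.976) in GCERAd over WT. Without GCERAd 4 and 5 the last was -0.68 (adjusted p = 0.000104) and GCERAdT over GCERAd 2.19 (adjusted p = 1.44e-05). Hcn3 overlaps Pklr on the other strand, and it had at most 1.06 CPM in any library.

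Lactate dehydrogenase joins pyruvate and L-lactate; Ldha favours making lactate and Ldhb, the heart form, favours using it. In WT Ldhb gave 84.2% ± 0.901 of their summed FPKM and Ldha 15.8% ± 0.901. The Ldha share was 24.2% ± 1.91 in GCERAd, 43.8% ± 3.64 in TRACK and 43.4% ± 3.3 in GCERAdT. Ldha had 415 to 436 CPM in WT, 538 to 639 CPM in GCERAd, 1340, 1280 and 946 CPM in TRACK and 1070, 1210, 1190 and 1250 CPM in GCERAdT. Ranges of WT, GCERAd and the TRACK groups were apart from one another. Ldha rose by 1.5 (SE 0.1, adjusted p = 4.09e-06, edgeR) in TRACK over WT, by 0.95 (SE 0.09, adjusted p = 6.73e-05) in GCERAdT over GCERAd and by 0.54 (SE 0.07, adjusted p = 0.000207) in GCERAd over WT. The difference between the ATF4 KO contrasts was -0.54 (SE 0.14, adjusted p = 0.00889).

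Ldhb moved the other way, with 955 to 1130 CPM in WT, 795 to 1040 CPM in GCERAd, 719, 751 and 678 CPM in TRACK and 673 to 796 CPM in GCERAdT. It fell by 0.57 (SE 0.08, adjusted p = 0.000276, edgeR) in TRACK over WT, and by 0.38 (SE 0.08, adjusted p = 0.00141) with library kind, to which it also responded. In GCERAdT over GCERAd it was -0.32 (SE 0.11, adjusted p = 0.0625), and -0.33 (SE 0.06, adjusted p = 0.000591) with kind. In all 4 groups Ldhb stayed above Ldha per length, with mean FPKM of 456 ± 23.5 against 360 ± 64.4 in TRACK, whose ranges were nearest.

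Ldhd, the mitochondrial enzyme that oxidises D-lactate, had the largest change of the members tested in GCERAd over WT. It had 359, 359, 484, 366 and 320 CPM in WT and 1240, 1320, 1310, 1360 and 1460 CPM in GCERAd. TRACK had 1140, 1080 and 847 CPM and GCERAdT 912, 818, 817 and 1110 CPM. WT was lowest, GCERAd highest, and the TRACK groups lay between them and overlapped each other. Ldhd rose by 1.84 (SE 0.11, adjusted p = 8.1e-07, edgeR) in GCERAd over WT and by 1.44 (SE 0.13, adjusted p = 3.01e-05) in TRACK over WT, and fell by 0.57 (SE 0.11, adjusted p = 0.00635) in GCERAdT over GCERAd. GCERAdT over TRACK was -0.16 (SE 0.14, adjusted p = 0.514), and the difference between the ATF4 KO contrasts was -1.99 (SE 0.18, adjusted p = 1.09e-06). Since the 12 libraries that differ from WT in Xist and Y-linked counts are also the 12 above WT in Ldhd, the 2 cannot be told apart. Ldhd overlaps Znrf1 on the other strand, with 40.2% of its 51-base words shared, and the strand setting of the counting is not given. Znrf1 had at most 17.1 CPM in any library, and was -0.16 (adjusted p = 0.347) in GCERAd over WT.

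**Figure D4:**
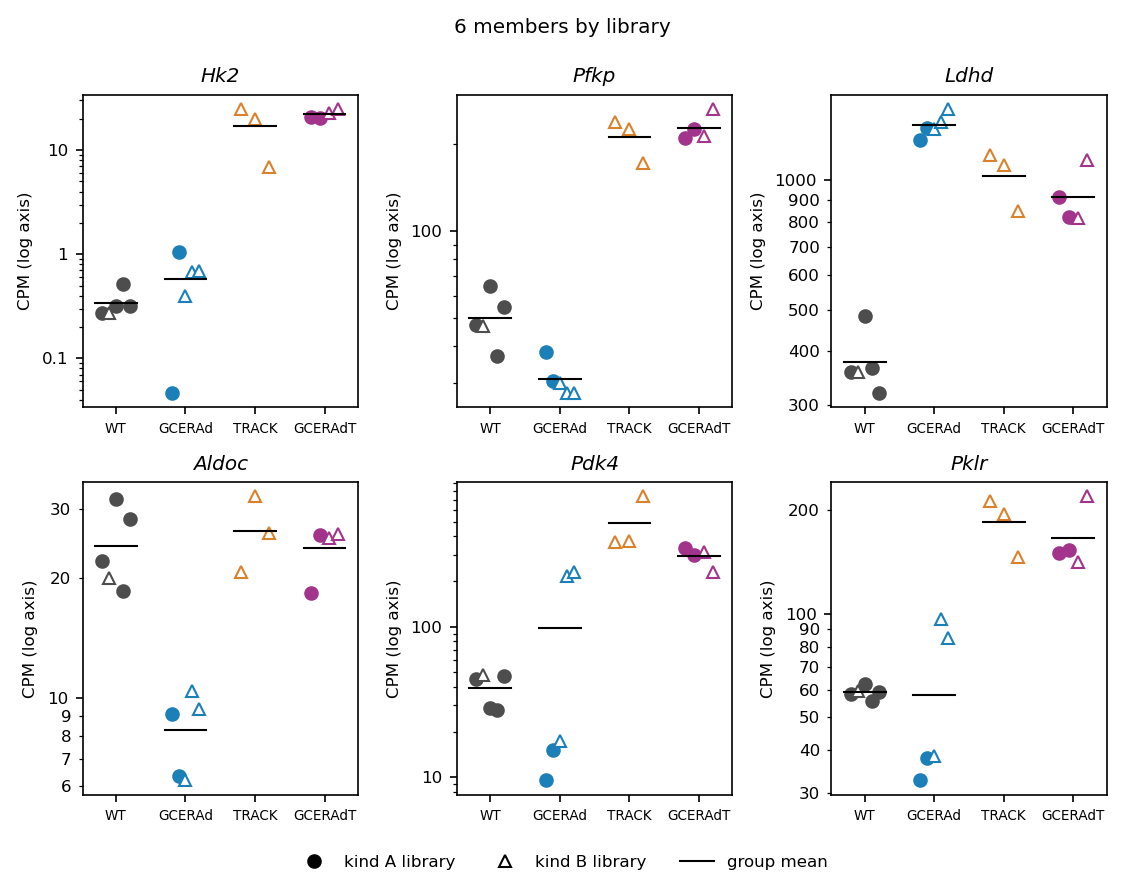
CPM on a log axis of Hk2, Pfkp, Ldhd, Aldoc, Pdk4 and Pklr in each library by group, with filled circles for kind A and open triangles for kind B and a line at the group mean. Hk2 and Pfkp separate the TRACK groups from the others, Aldoc is lowest in GCERAd, and Pdk4 and Pklr put GCERAd 4 and 5 above GCERAd 1, 2 and 3.

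Pyruvate enters the mitochondrial citrate cycle through the pyruvate dehydrogenase complex. Pdha1 and Pdhb encode the subunits of its E1 enzyme, Dlat the E2 enzyme, Pdhx the protein that binds E3, and Dld, not among the 37, the E3 enzyme. Pdha1 had 542 to 604 CPM in WT, 546, 598, 617, 775 and 739 CPM in GCERAd, 732, 738 and 633 CPM in TRACK and 586 to 622 CPM in GCERAdT, and rose by 0.30 (SE 0.07, adjusted p = 0.00753, edgeR) in TRACK over WT. With kind in the fit this was 0.17 (adjusted p = 0.224). Pdhb had 129 to 181 CPM and was called in no comparison without kind, and with kind it fell by 0.28 (SE 0.07, adjusted p = 0.033) in GCERAdT over TRACK. Dlat had 146 to 156 CPM in WT, 168 to 186 CPM in GCERAd, 147 to 164 CPM in TRACK and 128 to 149 CPM in GCERAdT. It rose by 0.22 (SE 0.06, adjusted p = 0.012) in GCERAd over WT and fell by 0.34 (SE 0.08, adjusted p = 0.0121) in GCERAdT over GCERAd. Pdhx did likewise, with 0.28 (SE 0.08, adjusted p = 0.0178) and -0.33 (SE 0.08, adjusted p = 0.0227), the latter lost without any of 5 libraries. Differences between the ATF4 KO contrasts were called for Pdha1 (-0.42, adjusted p = 0.0321, and 0.165 with kind), Dlat (-0.36, adjusted p = 0.00905) and Pdhx (-0.46, adjusted p = 0.00638). Dld was between 271 and 419 CPM and was called in no comparison without kind.

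The PDH kinases phosphorylate E1 and switch the complex off. Pdk2, the common form of kidney, gave 80.6% ± 2.1 of the summed FPKM of Pdk2, Pdk3 and Pdk4 in WT, and had 230 to 395 CPM over all libraries with no call. Pdk4, the form induced by fasting, gave 8.19% ± 1.89 in WT, 50.7% ± 13 in TRACK and 42.8% ± 5.11 in GCERAdT. It had 44.9, 47.4, 29, 28 and 47 CPM in WT, 367, 374 and 734 CPM in TRACK and 332, 298, 312 and 231 CPM in GCERAdT. In GCERAd it had 9.49, 15.2 and 17.3 CPM in libraries 1, 2 and 3 and 217 and 232 CPM in libraries 4 and 5, on either side of the whole WT range. Pdk4 rose by 3.65 (SE 0.27, adjusted p = 6.78e-06, edgeR) in TRACK over WT. In the fit of all 17 libraries with kind it was 2.56 (SE 0.99, adjusted p = 0.0589). GCERAd over WT was 1.33 (SE 0.81, adjusted p = 0.25), and without GCERAd 4 and 5 it was -1.48 (adjusted p = 0.00118). GCERAdT over GCERAd was 1.56 (SE 0.88, adjusted p = 0.248), and without these 2 libraries 4.39 (adjusted p = 1.53e-06).

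Pdk4 did not stand alone in those libraries. Pck1, the key enzyme of glucose synthesis, had 964, 1360 and 1230 CPM in GCERAd 1, 2 and 3 and 8440 and 7970 CPM in GCERAd 4 and 5, where WT had 1850 to 3080 CPM, and Pcx, pyruvate carboxylase, had 572, 691 and 594 CPM against 1580 and 1670 CPM. The labels give no reason for the split. The study's table of sequencing lanes holds sample names of different series but does not match them to these libraries, so a difference of series was not tested. Pdk3 had 35.2 to 43.4 CPM in WT and 41.1 to 63.8 CPM elsewhere, and rose by 0.53 (SE 0.12, adjusted p = 0.00571, edgeR) in TRACK over WT and by 0.36 (SE 0.09, adjusted p = 0.0134) in GCERAd over WT. Pdk1, a known HIF-1α target and not among the 37, had 67.8 to 76.9 CPM in WT, 33.8 to 73.4 CPM in GCERAd, 290, 284 and 234 CPM in TRACK and 255 to 285 CPM in GCERAdT. It rose by 1.92 (SE 0.09, adjusted p = 3.75e-07) and by 2.41 (SE 0.21, adjusted p = 3.68e-05) in the TRACK comparisons, without overlap. With Pdk1 in the summed FPKM, the Pdk4 share was 7.67% ± 1.79 in WT, 45% ± 13 in TRACK and 36.4% ± 4.29 in GCERAdT. The Pdk1 share was 6.31% ± 0.524, 11.6% ± 2.6 and 15.1% ± 1.34 in these groups.

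The PDH phosphatases switch the complex on. Pdp2 gave 87% ± 0.981 of their FPKM in WT. It had 60.9 to 77.4 CPM in WT, 71.8 to 84.9 CPM in GCERAd, 54.2, 51.4 and 44.9 CPM in TRACK and 36.7, 40.6, 39.4 and 48.6 CPM in GCERAdT. It fell by 0.44 (SE 0.11, adjusted p = 0.00941, edgeR) in TRACK over WT and by 0.96 (SE 0.09, adjusted p = 8.72e-05) in GCERAdT over GCERAd, with a difference between the ATF4 KO contrasts of -0.50 (SE 0.15, adjusted p = 0.018), which did not pass without TRACK 1 (adjusted p = 0.0607). Pdp1, the muscle form, had 5.37 to 13.6 CPM and rose by 0.62 (SE 0.18, adjusted p = 0.0358) in GCERAdT over GCERAd, a call lost without any of 6 libraries.

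**Figure D5:**
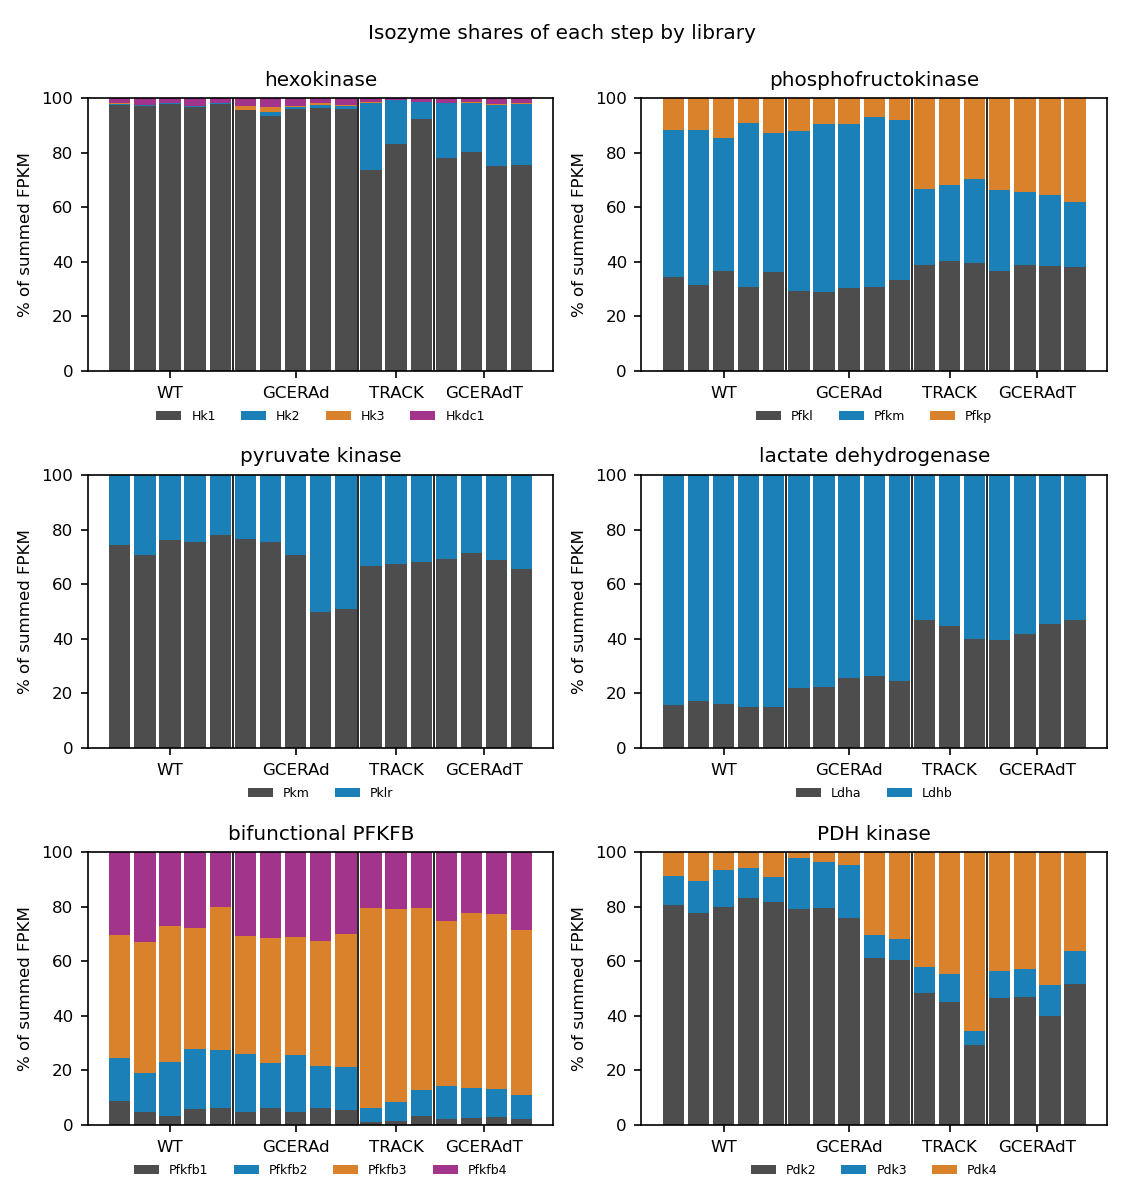
Share of each isozyme in the summed FPKM of the members of its step, in percent, for 6 steps, 1 bar for each library in group order WT, GCERAd, TRACK and GCERAdT. The PDH kinase step leaves out Pdk1, which is not a member. With TRACK, the shares of Hk2, Pfkp, Ldha, Pfkfb3 and Pdk4 are larger than in WT, and in pyruvate kinase and PDH kinase GCERAd 4 and 5 differ from the other GCERAd libraries.

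The shares of isozymes were compared between groups with 2-sided exact permutation tests, 22 shares in 4 pairs of groups, adjusted over all 88 tests. None passed an adjusted p of 0.05. For GCERAd over WT, 8 of 22 had an unadjusted exact p under 0.05 and the smallest adjusted p was 0.0698. For TRACK over WT they were 16 and 0.0806, for GCERAdT over GCERAd 19 and 0.0698, and for GCERAdT over TRACK 0 and 0.103. The smallest p that these group sizes allow is 0.00794 for GCERAd and WT, 0.0357 for TRACK and WT, 0.0159 for GCERAdT and GCERAd, and 0.0571 for GCERAdT and TRACK, which cannot pass. The shift from Ldhb to Ldha, for example, was 28 percentage points in TRACK over WT (exact p = 0.0357, adjusted p = 0.0806) and 8.39 points in GCERAd over WT (exact p = 0.00794, adjusted p = 0.0698), without overlap in either. The phosphoglycerate mutase shares followed the kind of library, with a Pgam1 share in WT of 49% in kind A and 27% in kind B, and in GCERAdT of 73.3% and 50.5%.

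Glucose and lactate carriers, glucose-making enzymes and regulators of the pathway were followed as a list of 46 other genes. Of these, 39 were tested in TRACK over WT, with 21 higher and 6 lower, and 39 in GCERAdT over GCERAd, with 10 higher and 1 lower. GCERAd over WT had 3 higher and 4 lower of 38, and GCERAdT over TRACK 3 higher and 7 lower of 39. The shares of all genes called are those given above for each comparison: 23% and 22.6%, 9.39% and 9.79%, 14.1% and 13.5%, and 2.81% and 4.28%. With library kind in the fit of 17 libraries, 39 of the listed genes were tested in each comparison. TRACK over WT then had 19 higher and 6 lower, and GCERAdT over GCERAd 14 and 2. GCERAd over WT had 2 and 7, where 15.6% and 16% of all genes were called, and GCERAdT over TRACK 3 and 1, where 2.56% and 4.07% were. Slc16a3, which exports lactate from glycolytic cells and is a known HIF-1α target, had 0.223 to 0.766 CPM in WT, 0.31 to 0.543 CPM in GCERAd, 20.5, 20 and 14.8 CPM in TRACK and 31.3, 44.7, 45.1 and 40.8 CPM in GCERAdT. It rose by 5.15 (SE 0.27, adjusted p = 8.6e-07, edgeR) and by 6.53 (SE 0.19, adjusted p = 1.56e-08) in the TRACK comparisons, and by 1.15 (SE 0.16, adjusted p = 0.00358) in GCERAdT over TRACK. Egln3, an oxygen sensor that HIF-1α induces, rose by 3.37 (SE 0.17) and 3.19 (SE 0.2), and Myc by 1.92 (SE 0.31) and 1.40 (SE 0.24).

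Slc16a1, a lactate and pyruvate carrier, was 1.93 (SE 0.36, adjusted p = 0.00494, edgeR) in GCERAdT over GCERAd and 1.28 (SE 0.19, adjusted p = 0.00511) in GCERAdT over TRACK, where it had 124 to 217 CPM against 58.7 to 74.1 CPM. Slc2a1, the glucose carrier GLUT1, fell by 0.74 (SE 0.1, adjusted p = 0.000293) in GCERAd over WT and rose by 1.35 (SE 0.1, adjusted p = 8.1e-06) in GCERAdT over GCERAd, with a difference between the ATF4 KO contrasts of 1.17 (SE 0.15, adjusted p = 5.37e-05). Pck1 and Pcx rose by 1.61 (SE 0.19) and 1.51 (SE 0.07) in TRACK over WT, where Pck1 with kind was 0.87 (adjusted p = 0.338). Pcx rose by 1.04 (SE 0.3, adjusted p = 0.0227) in GCERAd over WT, with 479 to 535 CPM in WT and its highest values in GCERAd 4 and 5, given above. The difference between the ATF4 KO contrasts was also called for Slc16a1 (1.64), Slc16a3 (1.40) and Pcx (-1.53). It was -1.20 for G6pc and -1.10 for Slc37a4, which release glucose from glucose-6-phosphate, and -1 (adjusted p = 0.0498) for Ppara, a regulator of fatty acid burning, and these last 3 were not called with kind.

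The difference between the ATF4 KO contrasts was called higher for 5 of 33 members and lower for 8, where 12.3% of all genes were higher and 12.8% lower. The 5 were Hk1, Pfkp, Aldoc, Eno3 and Pkm, all of which fell in GCERAd over WT and were not called in GCERAdT over TRACK. Of the 8, Ldha, Ldhd, Bpgm, Pfkfb3, Dlat and Pdhx rose in GCERAd over WT, and Pdha1 and Pdp2 were not called there. The call of Bpgm was lost without any of 11 libraries (adjusted p up to 0.0942) and that of Pdha1 without any of 6 (adjusted p up to 0.0868). GCERAd over WT and GCERAdT over TRACK share no library either, and 31 members were tested in both. None was called in the same direction in both, where 0.425% of all genes were higher in both and 0.354% lower in both. Pfkfb3 was called in opposite directions (3.23%, against 1.82% of all genes). With 1 member called in GCERAdT over TRACK, no more than 1 could be called in both. Across these members the changes had a Pearson correlation of -0.41, against -0.17 across the 11301 genes tested in both.

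Markers of other cells in the cortex differed between groups as well, and in bulk RNA fewer cells of a type cannot be told apart from less RNA per cell. The 10 proximal tubule markers summed to 16300 to 21300 CPM in WT, 32600 to 49300 CPM in GCERAd, 24300 to 34000 CPM in TRACK and 27100 to 39400 CPM in GCERAdT. Kap was the largest part of the sum and the most different from WT (6880 ± 1860 CPM in WT and 25000 ± 6390 CPM in GCERAd). WT also differs from the other groups in sex, so a rise of this sum over WT cannot be told apart from that. Slc34a1, the phosphate carrier of this tubule and also on that list, went against the sum in TRACK. It had 2720 to 3450 CPM in WT and 828 to 1190 CPM in TRACK. It was picked after its values were seen, and apart from Kap the other markers of the list are not given singly. Collecting duct markers (7 genes) summed to 905 to 1100 CPM in WT and 337 to 657 CPM in the other groups. Thick ascending limb markers (4 genes) summed to 5220 to 7970 CPM in WT, 3490 to 4750 CPM in GCERAd, 3600 to 6190 CPM in TRACK and 4270 to 4900 CPM in GCERAdT, and distal convoluted tubule markers (3 genes) to 511 to 770, 358 to 492, 234 to 362 and 378 to 539 CPM. Sums of these 3 lists were lower in GCERAd than in WT without overlap, as were Hk1, Pkm, Aldoc and Eno3. The share of all genes without overlap was not computed. In TRACK the collecting duct and distal convoluted tubule sums were also below WT without overlap. There Pkm was above WT, and Hk1, Aldoc and Eno3 overlapped WT. Endothelial markers (4 genes) summed to 197 to 230 CPM in WT and 302 to 394 CPM in both TRACK groups. The part of these marker differences in the values of Hk1, Pkm and Aldoc, which other nephron segments are known to use, was not tested. Nor was their part in the values of Eno3.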

How the data were processed

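RNA of 17 kidney cortex libraries was sequenced, by the study's methods as pairs of 51 bases. The study's table of sequencing lanes gives clearly more bases per cluster for some libraries than for others, so read length may have differed. The deposited table held whole-number read counts per gene, not normalized, which the authors made with Cutadapt, STAR on GRCm38 and HTSeq. The annotation release, the strand setting and the treatment of reads with several matches are not given in the sources used here. Counts were scaled with TMM and tested in R 4.3.3 with edgeR 4.0.16 (glmQLFit, glmQLFTest), each pair of groups alone, with DESeq2 1.42.0 as an alternative. Merged exon lengths of GENCODE M21 gave FPKM. Calls needed an adjusted p of at most 0.05. The statistics were tested on simulated data. The libraries were separated into 2 kinds at 0.0477% of counts on processed pseudogenes. Same-numbered libraries of GCERAdT and GCERAd deviated together (correlations 0.38 to 0.54), with numbers 1 and 2 of kind A and 3 and 4 of kind B in both groups; a replicate block changed the calls to 17 higher and 6 lower. All 37 members are named. Other pathway genes are named where called with a log2 change of at least 1 in size, at most 5 each way, along with Pdk1, Dld and Atf4, and 1 gene that the rule names is not reported here; Slc34a1, Kap, Myh1, Znrf1 and Hcn3 were named after their values were seen. The members and lists were chosen with earlier results of these data known. WT and GCERAd hold more libraries than the labels name mice for a cohort, and WT 1 and 2, and GCERAd 2 and 3, may be repeat libraries, so p-values measure the spread between libraries, which may in part be technical.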

Additional observations from a re-analysis of the deposited data

Results flagged for a closer look

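Single libraries stood apart from their group in 11 of 111 groups of member values of 4 or 5 libraries, by the gap to the nearest library as a share of the group's range; chance gives about 1 in 20. WT 2, the 1 kind B library of its group, was lowest for Pgk1 (gap 0.905 of the range) and Gapdh (0.735). GCERAdT 4 was highest for Pdhx (0.944, 37.9 CPM against 32.5 to 32.8), Pgam2 (0.855) and Pklr (0.846, 219 CPM against 141 to 153). GCERAdT 1 was lowest for Aldoc (0.92). The others were Hk2 in WT 4 (0.804), Hk3 in WT 1 (0.72), Ldhd in WT 3 (0.72), Pfkp in GCERAd 1 (0.738) and Pfkfb4 in GCERAd 4 (0.834).

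The ATF4 KO contrasts, GCERAdT over TRACK and GCERAd over WT, differed by the edgeR test of the difference itself for 13 members. It was 0.65 for Hk1, 0.82 for Pfkp, 1.40 for Aldoc, 1.03 for Eno3 and 0.75 for Pkm. It was -1.99 for Ldhd, -0.86 for Pfkfb3, -0.54 for Ldha, -0.50 for Pdp2, -0.46 for Pdhx, -0.42 for Pdha1, -0.36 for Dlat and -0.32 for Bpgm. Leaving out 1 library ended the call of Bpgm for 11 of the 17 libraries (adjusted p up to 0.0942) and of Pdha1 for 6 (up to 0.0868). The same test of Atf4 gave 0.55 (adjusted p = 0.021), and WT, in 1 of the contrasts alone, is the group that differs in Xist and Y-linked counts.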

How the results depend on the processing

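Most single member values kept their direction and side of the threshold: of 1577 values under alternatives, 1338 did, 85 passed newly, 149 no longer passed and 5 reversed. Pdk4 in GCERAd over WT turned from 1.33 to -1.58 in kind A libraries alone and to -1.48 without GCERAd 4 and 5. Pgam1 in TRACK over WT turned from -0.38 to 0.79 with kind as a covariate, 0.76 with kind in the fit of 17 libraries and 0.79 in kind B libraries alone. In GCERAd over WT, members called higher (9) were 5 with a replicate block, 5 in kind A and 1 in kind B alone; those called lower (6) were 0 in kind B alone and 11 without GCERAd 4 and 5. In TRACK over WT, members called lower (4) were 2 with a replicate block, 2 with kind as a covariate and 0 in kind B alone. In GCERAdT over TRACK, members called lower (1) were 2 with DESeq2, without the minimum, and in the fit of 17 libraries with or without kind, and 0 with a replicate block, with kind as a covariate and in kind B alone; 1 was called higher without the minimum. In GCERAdT over GCERAd, those called lower (5) were 1 in kind B alone. Kind B alone holds 1 WT library, and its spread is taken from the other group. For the other changes the cause was not tested. The share of all genes called was not computed under these alternatives, apart from the fit of 17 libraries with kind. A change in these counts can therefore not be read as a result about the members.

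With a replicate block, calls higher and lower were 14 and 2 in TRACK over WT, 17 and 6 in GCERAdT over GCERAd, and 6 and 8 for the difference between the ATF4 KO contrasts; outside GCERAdT and GCERAd, same-numbered libraries did not deviate together (correlations -0.59 to 0.05). Leaving out 1 library gave 7 to 9 higher and 6 to 7 lower in GCERAd over WT, 18 to 19 and 3 to 5 in TRACK over WT, 0 and 0 to 2 in GCERAdT over TRACK, 12 to 14 and 3 to 6 in GCERAdT over GCERAd, and 4 to 7 and 5 to 10 for the difference. No isozyme share was called in any of these. With the possible repeat libraries summed, 8 members were higher and 6 lower in GCERAd over WT, and 18 and 5 in TRACK over WT. GCERAdT over GCERAd then had 14 and 4, and the difference 7 and 9. Kind A alone could not be run for the comparisons with TRACK, which has no such library. The fits within a kind, without GCERAd 4 and 5, and of 17 libraries with kind were chosen after seeing the data. For the counts with a replicate block, with 1 library left out and with repeat libraries summed, the share of all genes was not computed either.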
